A study of Homo sapiens with 3 samples.

Results

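The genes CXCL8, CXCL6, CXCL1, CXCL5, CXCL3 and CXCL2 code for the ELR-positive CXC chemokines that attract neutrophils, and they lie in one cluster on chromosome 4. They were selected by gene symbol, and all 6 were found among the 26108 genes of the deposited table. The mRNA of LX-2 cells, an established line of human hepatic stellate cells, was sequenced in a study of how FGF19 acts on the formation of cancer-associated fibroblasts. One culture received vehicle, and the others received rhFGF19 (recombinant human FGF19) at 50 ng/mL or at 100 ng/mL. Per the study's methods, LX-2 cells were grown in serum-containing DMEM. With 1 library per condition, no comparison of these libraries had a replicate check and no p-value was computed. The series design gives 24 h of treatment, whereas another field of the sample records gives 72 h and 73 h and exchanges the doses of the rhFGF19 libraries. The rhFGF19 libraries are therefore called rhFGF19-50 and rhFGF19-100 after the doses in their titles, and no order with dose or time is read from the data.

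Each value was an FPKM, the number of fragments per kilobase of transcript after scaling for the size of the library. Read counts were not among the values, which leaves the depth of each library unknown. At least 1 FPKM was listed for 8890 genes in the vehicle library, 10925 in rhFGF19-50 and 10894 in rhFGF19-100. Of the stellate cell and fibroblast markers, VIM was listed at 438.65, 654.31 and 648.66 FPKM and COL1A1 at 78.35, 107.83 and 104.14 FPKM in vehicle, rhFGF19-50 and rhFGF19-100, respectively. ACTA2, the smooth muscle actin gene, was at 8.55, 8.01 and 7.74 FPKM. The retinol-storage enzyme LRAT was listed at 0 in all 3 libraries, DES at 0 in 2 of them, and PDGFRA did not exceed 0.09 FPKM. COL1A2 did not exceed 0.14 FPKM, although it codes for the partner chain of COL1A1 in type I collagen.

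ELR CXC chemokines are small secreted proteins that carry a glutamate-leucine-arginine motif just before their first cysteines. They bind to glycosaminoglycans on the surface of cells and to G protein-coupled receptors on neutrophils. CXCL8 (interleukin-8) and CXCL6 (GCP-2) act on both CXCR1 and CXCR2, whereas CXCL1, CXCL2 and CXCL3 (the GRO proteins) and CXCL5 (ENA-78) act mainly on CXCR2. Their genes are classic targets of NF-κB in fibroblasts exposed to IL-1 or TNF, and their mRNAs are short-lived because AU-rich elements in the 3′ UTR recruit decay factors. In the liver, stellate cells are one of the sources of these chemokines.

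In chromosomal order on GRCh38, CXCL8 (ENSG00000169429, chr4:73740541-73743716), CXCL6 (ENSG00000124875, chr4:73836640-73838760) and CXCL1 (ENSG00000163739, chr4:73869393-73871308) lie on the plus strand. They are followed on the minus strand by CXCL5 (ENSG00000163735, chr4:73995642-73998677), CXCL3 (ENSG00000163734, chr4:74036589-74038807) and CXCL2 (ENSG00000081041, chr4:74097040-74099195). The cluster spans 358.7 kb. The sequence just before each gene's start is shown because all 6 carry the same NF-κB-type motif there. Each stretch holds 110 bases of the RefSeq promoter (GRCh38.p14), is written 5′ to 3′ on the gene's own strand and ends at position -1, the base before the RefSeq start, which need not be the start given in the deposited table. Capitals mark GGAATTTCC.
CXCL8: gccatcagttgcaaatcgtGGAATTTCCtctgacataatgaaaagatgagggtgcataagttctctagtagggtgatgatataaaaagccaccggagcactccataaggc
CXCL6: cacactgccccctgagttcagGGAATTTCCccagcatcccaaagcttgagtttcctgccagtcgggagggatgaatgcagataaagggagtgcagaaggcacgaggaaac
CXCL1: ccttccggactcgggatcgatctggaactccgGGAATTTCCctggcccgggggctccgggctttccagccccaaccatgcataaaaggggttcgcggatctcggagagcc
CXCL5: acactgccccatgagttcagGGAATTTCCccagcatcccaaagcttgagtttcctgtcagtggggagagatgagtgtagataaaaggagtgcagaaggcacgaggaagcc
CXCL3: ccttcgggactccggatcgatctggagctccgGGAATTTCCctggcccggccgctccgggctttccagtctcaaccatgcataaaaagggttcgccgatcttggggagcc
CXCL2: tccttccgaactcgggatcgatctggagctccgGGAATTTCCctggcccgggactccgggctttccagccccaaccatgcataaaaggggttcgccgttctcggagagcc

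The stretches lie at chr4:73740459-73740568 for CXCL8, chr4:73836568-73836677 for CXCL6 and chr4:73869283-73869392 for CXCL1 on the plus strand. On the minus strand they lie at chr4:73998678-73998787 for CXCL5, chr4:74038690-74038799 for CXCL3 and chr4:74099196-74099305 for CXCL2. GGAATTTCC began at -91 in CXCL8, -89 in CXCL6, -90 in CXCL5, -78 in CXCL1 and CXCL3 and -77 in CXCL2, in each case on the gene's own strand. Of all 35116 promoters in the table (250 bases before to 50 after the start, both strands searched), 162 or 0.461% held it. The overlapping motif GGGAATTTC was found in 5 members, all except CXCL8, and in 0.316% of promoters. The AP-1 motif TGACTCA was found among the members in CXCL8 alone, beginning at -137, and in 4.95% of promoters. The STAT-type motif TTCNNNGAA was found in CXCL5 and CXCL6, where it overlaps GGAATTTCC, and in 7.66% of promoters. GGGCGG was found in CXCL6, CXCL1 and CXCL3 and in 45.0% of promoters. The TATA-box type motif ATAAAA began at -30 or -31 in every member but CXCL6 and was found in 16.0% of promoters. TATAAA, which overlaps it in CXCL8, was found in no other member and in 11.5% of promoters. These motifs were chosen with the sequences in view and describe letters in a window, not bound sites.

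The promoters fell into the same families as the coding sequences. The stretches of CXCL1, CXCL2 and CXCL3 were 88.3% to 93.7% identical to each other, and those of CXCL6 and CXCL5 91.0%. Coding sequences were 93.5% identical between CXCL1 and CXCL2, 94.4% between CXCL3 and CXCL2, 90.7% between CXCL1 and CXCL3, and 87.5% between CXCL6 and CXCL5. CXCL8 stood apart, with coding identities of 48.6% to 53.1% to the other members. Close copies can share reads. Of the windows of 50 bases in the longest coding transcript, 9.24% in CXCL2, 5.73% in CXCL1 and 5.26% in CXCL3 occurred letter for letter in another member, and none did in CXCL8, CXCL6 or CXCL5. How shared fragments were assigned is not given in the sources used here. The values of CXCL1, CXCL2 and CXCL3 are therefore uncertain by an unknown amount. The shares of windows do not bound it, because near matches and the other listed transcripts were not examined.

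All 6 mRNAs were detected without FGF19, at levels that ranged from 1.75 to 122.06 FPKM, and all 6 were listed higher in both rhFGF19 libraries than in the vehicle library. Most genes that passed the filter given below were also higher, as their median fold changes there show. Nothing particular to the 6 is therefore read from that direction. Among the ligands of both receptors, CXCL8 was at 47.35 FPKM in vehicle, 143.36 in rhFGF19-50 and 145.98 in rhFGF19-100. This was the member with the largest fold change, 3.03-fold and 3.08-fold. CXCL6, the least abundant member in every library, was at 1.75, 4.19 and 3.90 FPKM, or 2.39-fold and 2.23-fold higher than in vehicle.

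Among the CXCR2 ligands, CXCL1 was the most abundant member in every library, at 122.06 FPKM in vehicle, 207.25 in rhFGF19-50 and 204.69 in rhFGF19-100. Its fold change of 1.70 and 1.68 was among the smallest of the cluster. CXCL2 was at 6.51, 14.71 and 15.27 FPKM, 2.26-fold and 2.35-fold higher. CXCL3 was at 3.21, 5.29 and 5.65 FPKM, 1.65-fold and 1.76-fold higher. CXCL5 was at 2.79, 6.58 and 7.19 FPKM, 2.36-fold and 2.58-fold higher. CXCL2 and CXCL3, whose coding sequences are 94.4% identical, were thus listed with unlike levels and fold changes, whereas CXCL1 and CXCL3, which lay 38.0-fold apart in level in vehicle, had similar fold changes. In RNA of a whole culture, more cells that express a gene and more mRNA per cell cannot be told apart.

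**Figure D1:**
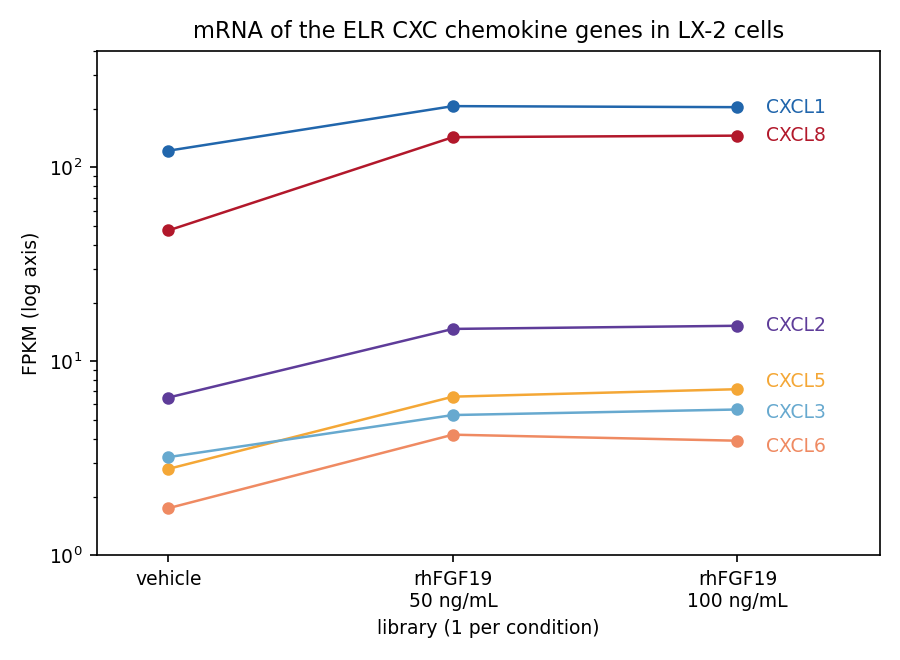
FPKM (log axis) of the 6 genes in the vehicle library and libraries rhFGF19-50 and rhFGF19-100, 1 point per library, with no error bars because each condition had 1 library. Every line steps up from vehicle and then runs nearly level, CXCL1 and CXCL8 lie above 40 FPKM and the other 4 genes below 20 FPKM, and CXCL5 passes CXCL3.

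The logarithm of FPKM + 0.1 to base 2 was compared next, a scale that compresses changes among low genes. The differences from vehicle in rhFGF19-50 were 1.60 for CXCL8, 1.21 for CXCL6, 0.76 for CXCL1, 1.21 for CXCL5, 0.70 for CXCL3 and 1.16 for CXCL2. In rhFGF19-100 they were 1.62, 1.11, 0.75, 1.33, 0.80 and 1.22 in the same order. All 6 members passed the filter, an average of 0.5 FPKM or more over the 3 libraries. By the study's criterion of more than 2-fold, 4 of the 6 were higher than in vehicle in rhFGF19-50 and the same 4, CXCL8, CXCL6, CXCL5 and CXCL2, in rhFGF19-100. Among all 12447 genes that passed the filter, 39.4% were higher by that measure in rhFGF19-50 and 38.5% in rhFGF19-100. None of the members was more than 2-fold lower, which 1.78% of genes were in rhFGF19-50 and 1.58% in rhFGF19-100. Beside such shares, nothing particular to these 6 genes is read from their count. The members' median log2 fold change was 1.19 in rhFGF19-50 and 1.16 in rhFGF19-100, against 0.62 and 0.61 over all genes tested. Both comparisons use the same vehicle library, so the second does not repeat the first independently. CXCL1, CXCL2, CXCL5 and CXCL8 were also among the inflammatory markers that the study displayed from these libraries. Their direction here is therefore not independent of that choice. Outside these libraries, the study reported higher CXCL1 and CXCL5 mRNA by qRT-PCR, with rhFGF19 or with FGF19-containing medium of cancer cells. It also reported that a neutralizing antibody against FGF19 attenuated the rise with that medium. The markers it lists for qRT-PCR do not include the other members.

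Measured from the all-gene median, CXCL8 was 0.98 higher in rhFGF19-50 and 1.01 in rhFGF19-100 on the log2 scale, and CXCL3 0.09 and 0.18. By that measure 0 members in rhFGF19-50 and 1 member, CXCL8, in rhFGF19-100 passed 2-fold. CXCL8 lay near that threshold in both libraries, so nothing is read from the count. A fold change at least as high as that of CXCL8 was seen in 11.8% of all genes in rhFGF19-50 and in 9.82% in rhFGF19-100. For CXCL2 these shares were 32.9% and 29.5%, and for CXCL1 46.6% and 46.4%. Abundant genes behaved differently from the rest. The 3792 genes that averaged 10 FPKM or more had medians of -0.24 in rhFGF19-50 and -0.22 in rhFGF19-100 on the log2 scale, and 15.4% and 14.9% of them were over 2-fold higher. Among these abundant genes, 3.82% and 2.98% reached the fold change of CXCL8, and 20.2% and 19.9% that of CXCL1.

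Libraries rhFGF19-50 and rhFGF19-100 could hardly be separated by these genes. The log2 difference of rhFGF19-100 from rhFGF19-50 was 0.03 for CXCL8, -0.10 for CXCL6, -0.02 for CXCL1, 0.13 for CXCL5, 0.09 for CXCL3 and 0.05 for CXCL2, with 4 members higher and 2 lower. None was over 2-fold apart, which 1.74% of all genes were in either direction. Over all genes tested, the SD of this difference was 0.34, and over those averaging 10 FPKM or more it was 0.134. With 1 culture per dose, this does not show that both doses act alike.

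The mRNA of CXCL8 gained share within the cluster. The FPKM of the 6 genes summed to 183.67 in vehicle, 381.38 in rhFGF19-50 and 382.68 in rhFGF19-100, which is 2.08-fold higher in each rhFGF19 library. CXCL1 made up 66.5% of this sum in vehicle, 54.3% in rhFGF19-50 and 53.5% in rhFGF19-100, and CXCL8 made up 25.8%, 37.6% and 38.1%. The ratio of CXCL8 to CXCL1, 0.388 in vehicle, was 0.692 and 0.713 with rhFGF19. CXCL2 held 3.54%, 3.86% and 3.99% of the sum, and the other 3 genes under 2% each in every library. Among these scarce members the order changed. CXCL5 was lower than CXCL3 in vehicle, at a ratio of 0.869, and higher in both rhFGF19 libraries, at 1.24 and 1.27. Ratios within a library do not depend on how the libraries were scaled to each other. Their error is unknown with 1 library per condition. The coding transcript of CXCL8 holds 33.4% GC and that of CXCL1 45.6%, and the part of GC content in this shift was not tested.

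**Figure D2:**
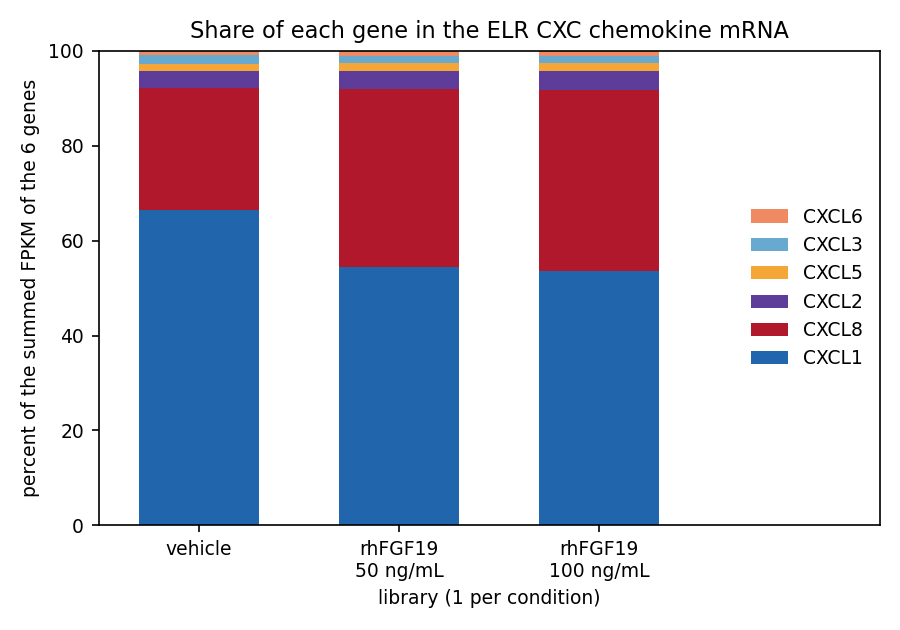
Percent of the summed FPKM of the 6 genes that each gene made up, in 1 library per condition, as stacked bars from 0. The CXCL1 segment shrinks from 66.5% in vehicle to 54.3% and 53.5% with rhFGF19, and the CXCL8 segment grows from 25.8% to 37.6% and 38.1%.

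Across the transcriptome, the fold change against vehicle went with the GC content of the transcript. Spearman's rho between the log2 fold change and the median GC content of a gene's listed transcripts was -0.767 in rhFGF19-50 and -0.774 in rhFGF19-100 over 12397 genes, which share their libraries and are not independent. Between the rhFGF19 libraries it was 0.0674. Where the members lay on this trend depended on which transcripts stood for the gene, and most for CXCL2. The median GC content of CXCL2 was 61.8%, a value set by 2 listed transcripts of 577 and 568 nt without an annotated start and stop, at 63.6% and 61.8% GC. The transcript that codes for the protein has 1218 nt and 46.0% GC. With the median over transcripts, CXCL2 lay 1.57 above the trend in rhFGF19-50 and 1.61 in rhFGF19-100 on the log2 scale. With the GC content of the longest coding transcript of each gene, an alternative chosen after seeing the data, it lay 0.03 and 0.10 above. Its fold change was therefore close to that of genes whose coding transcripts have the same GC content.

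By the coding transcript, GC content was 33.4% for CXCL8, 37.6% for CXCL5, 41.3% for CXCL6, 44.7% for CXCL3, 45.6% for CXCL1 and 46.0% for CXCL2. The trend at those GC contents was 1.53, 1.48, 1.40, 1.23, 1.17 and 1.13 in rhFGF19-50, in the same order. CXCL8 lay 0.07 above it in rhFGF19-50 and 0.10 in rhFGF19-100. CXCL5 lay 0.27 and 0.13 below it, with values of -0.27 and -0.13. The values were -0.19 and -0.27 for CXCL6, -0.53 and -0.42 for CXCL3 and -0.40 and -0.40 for CXCL1. By the coding transcript, 2 members lay above the trend and 4 below it in each comparison, and the members' median was -0.23 in rhFGF19-50 and -0.20 in rhFGF19-100. By the median over all listed transcripts, 5 members lay above the trend and CXCL5 below it, with medians of 0.10 and 0.12, so the side on which the members lay depended on this choice. The values by that median were 0.09 and 0.12 for CXCL8, 0.16 and 0.08 for CXCL6, 0.12 and 0.12 for CXCL1, 0.04 and 0.15 for CXCL3 and -0.30 and -0.16 for CXCL5. With a second trend on mean level removed as well, CXCL8 was at 0.43 and 0.45, CXCL1 at 0.02 and 0.00, and CXCL2 at 0.04 and 0.11, whereas CXCL6, CXCL5 and CXCL3 were between -0.64 and -0.23. With 1 vehicle library, a change caused by rhFGF19 and a difference in how the vehicle library represents transcripts of different GC content cannot be told apart.

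The coding sequences and 3′ UTRs of these mRNAs contrast in composition. In the longest coding transcript, the coding sequence held 46.0% GC in CXCL8 and between 55.4% and 60.8% in the other members, and the 3′ UTR held between 28.7% in CXCL8 and 36.5% in CXCL1. The coding sequences are short, at 99 codons in CXCL8, 107 in CXCL1, CXCL2 and CXCL3, and 114 in CXCL5 and CXCL6. The 3′ UTR runs to 673 bases in CXCL3, 706 in CXCL1, 721 in CXCL2, 1119 in CXCL6, 1252 in CXCL8 and 1995 in CXCL5. The pentamer ATTTA, the core of AU-rich elements, occurred 10 times in the 3′ UTR of CXCL2, 7 times in CXCL3, 9 times in CXCL8, 5 times in CXCL1, 11 times in CXCL5 and 6 times in CXCL6. The longest 3′ UTR, that of CXCL5, thus held the most copies, but not the highest density. Per kb this was 13.9 in CXCL2, 10.4 in CXCL3, 7.19 in CXCL8, 7.08 in CXCL1, 5.51 in CXCL5 and 5.36 in CXCL6. The median over 10461 genes with a 3′ UTR of at least 100 bases was 1.55 per kb, and 6.32% of those genes had at least the density of CXCL6. Among the members, the density of ATTTA did not run in the order of the fold changes, since CXCL3 was second in density and had the smallest fold change in rhFGF19-50. The 3′ UTRs of CXCL1 and CXCL2 were 85.7% identical, but those of CXCL3 and CXCL2 only 61.4%.

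Most genes around the cluster were listed near 0. Of the 15 other rows within 1 Mb of the outermost members, 13 were under 1 FPKM in all 3 libraries, 6 were listed at 0 in vehicle, and the highest value of any was 4.06 FPKM. Every member except CXCL6 exceeded all of these rows in each library. The rows that passed the filter were COX18, ANKRD17 and ALB, all on the side of CXCL8. ANKRD17, an ankyrin-repeat protein gene, was at 1.26, 4.06 and 3.95 FPKM, with log2 fold changes of 1.61 and 1.57 that are close to those of CXCL8. COX18, which codes for a mitochondrial assembly factor, was at 0.32, 0.99 and 0.92 FPKM, with 1.38 and 1.28. ALB, the albumin gene, was at 2.16, 2.49 and 1.89 FPKM, with 0.20 and -0.18. On the side of CXCL2, the EGF family genes did not pass the filter. Among them AREG was at 0.13, 0.78 and 0.58 FPKM, EPGN at 0, 0.13 and 0.22, and EREG at 0.04, 0.02 and 0.06. MTHFD2L, the gene next to CXCL2, was at 0.31, 0.45 and 0.57 FPKM. Only 2 other rows lay between the outermost members. One, AC097709 (ENSG00000287037), overlaps the start of CXCL5 on the opposite strand and was at 0, 0.08 and 0.04 FPKM. The strand setting of the library is not given in the sources used here, so reads of CXCL5 and of this gene cannot be told apart where they overlap.

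**Figure D3:**
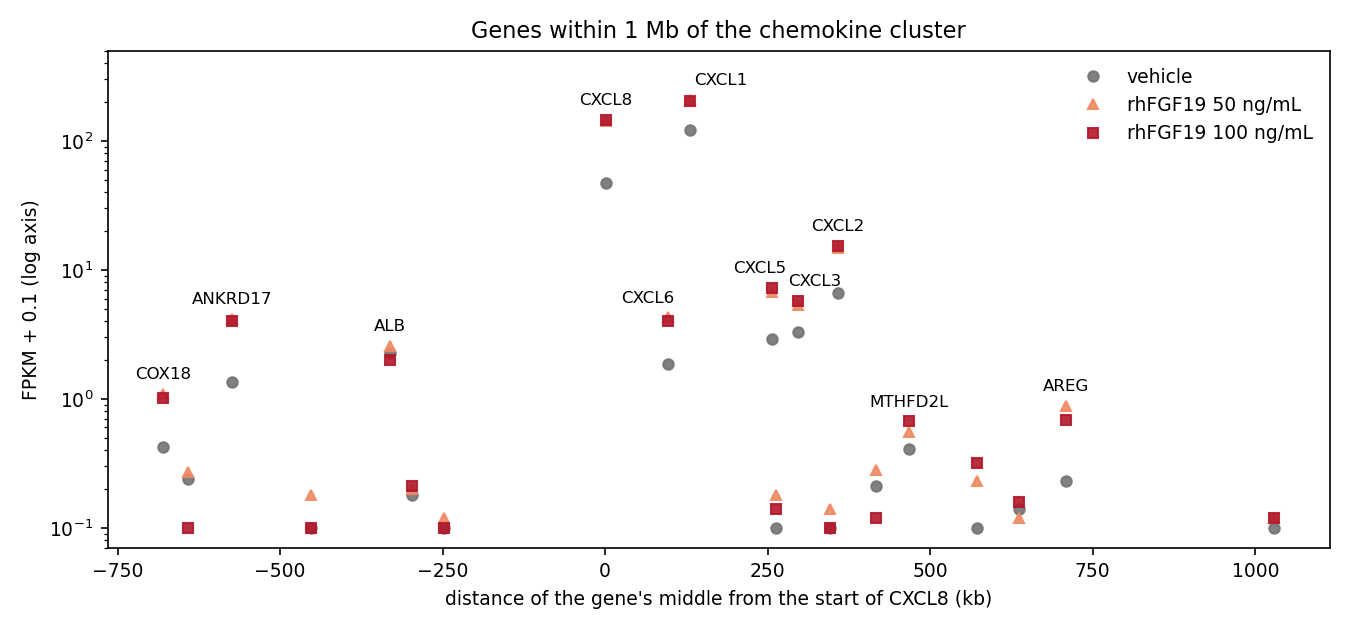
FPKM + 0.1 (log axis) of the 6 genes and the 15 other rows within 1 Mb, against the distance of each gene's middle from the start of CXCL8 in kb, with 1 symbol per library. All chemokine genes but CXCL6 stand above the neighbouring rows in each library, and of those rows ANKRD17 reaches 4.06 FPKM and 13 stay under 1 FPKM.

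Of the receptors for these chemokines, CXCR2 did not exceed 0.03 FPKM, and CXCR1 was not found by symbol in the deposited table. ACKR1, an atypical receptor that binds these chemokines without G protein signalling, was at 2.0, 2.31 and 1.68 FPKM. These receptor genes lie outside the rule for named genes and were chosen after their values were seen. Of the other CXC ligands, 5 of 11 were in the table and 3 passed the filter, none of them reaching 5 FPKM. Of these 3, 1 was over 2-fold higher in rhFGF19-50 and 2 in rhFGF19-100, with 0 lower. Over all genes, the shares were 39.4% and 38.5% higher and 1.78% and 1.58% lower. With 3 genes, nothing particular to the list is read from this. CXCL12 was over 2-fold higher in both, at 0.52, 1.45 and 1.19 FPKM. CXCL11 was so in rhFGF19-100 alone, at 0.25, 0.48 and 0.91 FPKM. Both are below the naming rule and were chosen after their values were seen.

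Of 6 cytokines known to induce this cluster, 4 passed the filter and were listed higher with rhFGF19. Of these, 2 were over 2-fold higher in each rhFGF19 library and 0 lower, with median log2 fold changes of 1.13 and 1.04. That share is near the 39.4% and 38.5% of all genes that were higher, so nothing particular to the list is read from it. Nor is anything particular read from the counts of the lists that follow. IL1B, which codes for interleukin-1β, was at 41.86 FPKM in vehicle, 102.14 in rhFGF19-50 and 95.67 in rhFGF19-100. The other was IL1A, below the naming rule at 0.68, 2.78 and 2.97 FPKM. IL1B thus lay nearest to CXCL8 in level, and IL1A below every member of the cluster in each library. IL6 was at 9.31, 18.39 and 17.28 FPKM, just under 2-fold. LIF, another cytokine of the interleukin-6 family, was at 9.13, 11.16 and 9.99 FPKM.

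The receptors and adaptors of those signals had no common direction. Of 19 listed, 11 passed the filter, 2 were over 2-fold higher in each library and 0 lower, and the medians were 0.03 and -0.08, below the all-gene share of 39.4% and 38.5% higher and the all-gene medians of 0.62 and 0.61. The 2 were the kinases IRAK4 and MAP3K7, both below 5 FPKM and named after their values were seen. IRAK1, a kinase of the IL-1 receptor pathway, was at 208.67, 113.75 and 113.85 FPKM, and the adaptor MYD88 at 12.51, 18.47 and 19.18 FPKM. IRAK1 thus lay below vehicle in both rhFGF19 libraries, whereas MYD88 and IRAK4, another kinase of that pathway, lay above it. TNFRSF1A, a TNF receptor, was at 69.56, 63.31 and 65.87 FPKM. FGFR1, a receptor of fibroblast growth factors, was at 8.86, 15.97 and 14.69 FPKM. Below 5 FPKM and so outside the naming rule, FGFR4, the main FGF19 receptor of hepatocytes, was at 1.79, 1.21 and 1.31 FPKM. Its co-receptor KLB was listed at 0 in vehicle and in rhFGF19-50 and at 0.02 FPKM in rhFGF19-100.

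Of 26 transcription factors and regulators of the cluster, 23 passed the filter. In rhFGF19-50 7 were over 2-fold higher and 1 lower, and in rhFGF19-100 5 were higher and 0 lower, with medians of 0.33 and 0.13. Both the counts and the medians were below those of all genes, of which 39.4% and 38.5% were higher, with medians of 0.62 and 0.61. Those higher in both were NFKB1, NFKBIZ, TNFAIP3, STAT3 and, below the naming rule, the IκB kinase gene CHUK. Within NF-κB, NFKB1 was at 5.0, 10.64 and 10.14 FPKM and RELA at 61.00, 48.39 and 48.16 FPKM. RELB, at 49.72, 24.59 and 28.02 FPKM, was the regulator over 2-fold lower in rhFGF19-50. Among the subunits, the more abundant ones were thus listed lower with rhFGF19 and NFKB1 higher. NFKBIZ, a co-activator at several of these promoters, was at 2.82, 6.41 and 6.15 FPKM. The feedback inhibitor TNFAIP3 was at 3.86, 10.89 and 10.61 FPKM, while NFKBIA, also a feedback inhibitor, was at 45.44, 57.09 and 52.07 FPKM. The scarcer inhibitor had the larger fold change. STAT3, which acts downstream of interleukin-6 family cytokines, was at 5.68, 12.54 and 12.41 FPKM. Of the AP-1 genes, JUN was at 38.16, 67.13 and 65.03 FPKM and FOSL1, the highest of the list, at 445.89, 343.99 and 344.60 FPKM. CEBPB, a further regulator of CXCL8, was at 86.70, 71.66 and 70.45 FPKM.

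Of 12 factors that control the decay of such mRNAs, 11 passed the filter, 4 were over 2-fold higher in rhFGF19-50 and 3 in rhFGF19-100, and 0 were lower, with medians of 0.79 and 0.50. These counts are near or below the all-gene shares of 39.4% and 38.5% higher. The 3 were ZFP36L1, MAPK14 and, below the naming rule, RC3H2, joined in rhFGF19-50 by ZFP36L2. ZFP36L1, which binds AU-rich elements and promotes decay, was at 8.17, 19.44 and 19.08 FPKM. ZC3H12A, the endonuclease regnase-1, was at 35.33, 23.27 and 22.12 FPKM. Of these decay factors, one was thus higher and the other lower than in vehicle. HNRNPD (AUF1) was at 16.29, 30.15 and 30.12 FPKM, and the stabilizing protein ELAVL1 (HuR) at 10.20, 15.14 and 14.46 FPKM. MAPK14, the p38 kinase that acts on this decay, was at 2.77, 6.24 and 6.45 FPKM.

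Of 9 other factors that act on neutrophils, 4 passed the filter and none passed 2-fold in either direction, and their medians were -0.50 and -0.53. Over all genes, 39.4% and 38.5% were over 2-fold higher, and the medians were 0.62 and 0.61. CSF3, the granulocyte colony-stimulating factor, was at 49.51, 31.11 and 28.38 FPKM, and CSF2 at 29.18, 23.33 and 21.92 FPKM. MIF was at 295.16, 178.77 and 187.48 FPKM, and C3, the central complement component, at 6.50, 5.31 and 5.07 FPKM. All 4 were thus listed below vehicle in both rhFGF19 libraries. CSF3, CSF2 and MIF are among the genes averaging 10 FPKM or more, whose medians were also below 0, at -0.24 and -0.22. C5, below the filter and the naming rule, was listed at 0.05, 0.16 and 0.11 FPKM. Of 11 proteases that trim these chemokines, 5 passed the filter and none passed 2-fold, with medians of 0.00 and 0.05. This too was below the shares and medians of all genes. The collagenase MMP1 was at 123.83, 210.31 and 218.17 FPKM and the membrane protease MMP14 at 86.94, 87.18 and 86.80 FPKM.

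The summed markers of leukocytes, endothelial cells and epithelial cells were not higher in either rhFGF19 library. The 5 neutrophil and other leukocyte markers in the table, of 9 listed, summed to 52.05 FPKM in vehicle, 47.03 in rhFGF19-50 and 42.44 in rhFGF19-100, nearly all of it from CD68, a lysosomal gene also expressed outside leukocytes. The neutrophil enzyme MPO did not exceed 0.01 FPKM, and PTPRC, CSF3R, FCGR3B and CD163 were not found by symbol in the deposited table. The endothelial markers summed to 0.50, 0.40 and 0.48 FPKM, the hepatocyte markers to 11.29, 12.46 and 11.44 FPKM and the epithelial markers to 0.12, 0.10 and 0 FPKM.

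By fold change, the genes most like the cluster had other functions. Among 3772 gene symbols that averaged 10 FPKM or more, likeness was the distance between a gene's pair of log2 fold changes and the members' median pair, which rests on 3 libraries and a shared vehicle. The closest were LMNB1 (lamin B1) at a distance of 0.0125, EXT2 (a heparan sulfate polymerase) at 0.0129, CLDN11 (claudin 11) at 0.0134, TPM3 (tropomyosin 3) at 0.018 and RBM3 (an RNA-binding protein) at 0.0197. LMNB1 was at 8.49 FPKM in vehicle, 19.59 in rhFGF19-50 and 19.06 in rhFGF19-100.

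The fold changes held their direction under some treatments of the values and not under others. Over 13 versions of the values other than the reported one, the log2 fold change of CXCL8 in rhFGF19-50 ranged from 0.07 to 1.89, that of CXCL2 from 0.03 to 1.57, and that of CXCL5 from -0.37 to 1.36. CXCL8 and CXCL2 stayed above 0 in all of them, whereas CXCL6, CXCL1, CXCL5 and CXCL3 fell below 0 in at least 1.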

How the data were processed

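Poly(A) RNA of 3 LX-2 cultures was sequenced on an Illumina HiSeq instrument with paired-end reads. Mapping was done with HISAT2 per the study's methods, and the submitters' processing notes name HISAT2 2.0, StringTie 1.3.0 and Bowtie 0.12.2 and the builds hg19 and mm8, without their roles. The authors deposited 1 FPKM value per gene and library, to 2 decimals, with no read counts. Columns of GO annotation accompany them. The deposited coordinates overlapped GRCh38 positions for 99.9% of 25531 identifiers found in GENCODE v29, the 6 members included, so coordinates are given on GRCh38. Depth is unknown, and so no interval is given.

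Differences of log2(FPKM + 0.1) between single libraries were computed for 12447 genes averaging 0.5 FPKM or more, and over 2-fold was counted. FPKM values were otherwise not rescaled. Transcript lengths, GC content and 3′ UTRs came from GENCODE v29 and promoters from RefSeq. Identities came from global alignment. GC values were found for 99.6% of tested genes. Trends were fitted by lowess (span 0.3) and subtracted. The members, the gene lists and the alternatives were chosen with earlier results of these data known. The text names all members, list genes of at least 5 FPKM in any library or at 0 in all 3, rows within 1 Mb, and the 5 genes most alike, besides markers and genes it says were chosen after their values were seen. In all, 13 lists were counted. Calculations used Python 3.11.15, NumPy 2.4.6, pandas 2.3.3, statsmodels 0.14.6 and Biopython 1.88, and were tested on simulated data.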

Additional observations from a re-analysis of the deposited data

How the results depend on the processing

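No paired analysis was possible because each condition had 1 library. Of 15 alternatives, 2 (the GC trend on 1 coding transcript per gene, alone and with the level trend) were added after seeing the data. The number of members over 2-fold above vehicle was 4 in each rhFGF19 library. With a pseudocount of 1 it was 2 and 3 (in rhFGF19-50 and rhFGF19-100). With the median ratio of genes set to 0, it was 1 and 2. Quantile normalization or removal of the level trend gave 2 and 2. Removal of the length trend or of the GC trend over all transcripts gave 1 and 1. This member was CXCL8 without the length trend and CXCL2 without the GC trend. A 4-fold threshold or either added alternative gave 0 and 0. The filters, TPM scaling, a pseudocount of 0.01 and the mean of both rhFGF19 libraries left the number at 4, and a 1.5-fold threshold gave 6. Counts over all genes, 4910 and 4796 of 12447 as reported, moved too. They were 2193 and 2079 with a pseudocount of 1 and 3788 and 3716 with the median ratio set to 0. At a 1.5-fold threshold they were 6330 and 6313, so nothing particular to the members is read from their 6. At a 4-fold threshold they were 232 and 199, and with TPM 5529 and 5362. Quantile normalization gave 1181 and 1080, and removal of the level trend 1131 and 1075. Without the length trend they were 1739 and 1686, and without the GC trend 477 and 420. The added alternatives gave 394 and 356 and, with the level trend, 392 and 338. The number of members apart between the rhFGF19 libraries stayed at 0 in each alternative that keeps these libraries apart. With the GC trend removed, CXCL5 reversed to -0.30 and -0.16 (1 transcript per gene: -0.27 and -0.13, with the level trend: -0.37 and -0.23), and CXCL6 reversed to -0.19 and -0.27 with 1 transcript per gene and to -0.31 and -0.39 with the level trend. CXCL3 and CXCL1, under 2-fold as reported, were at -0.53 and -0.42 and at -0.40 and -0.40 with 1 transcript per gene, and at -0.64 and -0.52 and at 0.02 and 0.00 with the level trend. The share of all over 2-fold calls that were higher, 95.7% and 96.1%, was 82.9% and 85.8% with the median ratio set to 0, 48.8% and 48.5% with quantile normalization, 43.2% and 42.9% without the GC trend, 36.5% and 36.9% without that on 1 transcript, 38.3% and 37.4% without both, 41.5% and 41.9% without the level trend and 46.1% and 47.1% without the length trend. The all-gene median was 0.40 in both comparisons with the median ratio set to 0, 0.77 and 0.74 with TPM, and 0.11 and 0.09 with quantile normalization. Low members (CXCL6, CXCL5, CXCL3) rest on few FPKM and an unknown number of reads.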

Other observations

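Seen against the whole chemokine family, the ELR CXC genes took a larger share of chemokine mRNA in the rhFGF19 libraries. The deposited GO annotation placed 24 genes under chemokine activity, of which 14 passed the filter. The 6 ELR CXC genes made up 35.4% of the summed FPKM of these 24 in vehicle, 55.0% in rhFGF19-50 and 55.2% in rhFGF19-100. The highest in every library was CCL5, a ligand for receptors on T cells and monocytes, at 250.79, 245.50 and 244.09 FPKM, so its level hardly differed between the libraries. CKLF was at 43.47, 36.83 and 35.37 FPKM and CCL3, the macrophage inflammatory protein 1α gene, at 20.95, 13.15 and 14.51 FPKM. The monocyte attractant gene CCL2, typical of activated stellate cells, did not exceed 0.11 FPKM, and CCL20 did not exceed 0.10 FPKM. These genes were chosen after their values were seen, and no replicate stands behind the shares. The complement gene C5 is among the 24 annotated genes. Of the members, CXCL8 was 96.01 and 98.63 FPKM above vehicle, CXCL1 85.19 and 82.63, and no other by more than 8.76. The members' coding transcripts hold 33.4% to 46.0% GC, and the part of GC content in their larger share was not tested.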
